A study of Mus musculus with 16 samples.

Results

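The regions described here are the starts of genes that gave almost no transcript in mouse oocytes. They were taken from 24483 genes of chromosomes 1 to 19 in the deposited expression table, of which 11317 stayed under 0.1 RPKM (reads scaled by transcript length and by library size) in all 9 columns. The 1134 genes with symbols beginning Olfr, Hox or Pcdh were set aside, as were 2303 genes whose start lay inside another listed gene, and 7880 silent starts remained. Each start was widened by 500 bp on both sides to make the region measured. The RPKM values chose these genes, so expression is given below as a description only. Methylation is not part of this rule, which was set with earlier results of these data known.

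The oocytes came from wild-type C57BL/6 mice (C57BL/6Babr in the study's methods), and no treatment was given. Growing oocytes were sorted by diameter into a class of 10-30 µm from mice aged 5 to 7 days, one of 40-45 µm from mice aged 7 to 12 days, one of 50-55 µm at 9 to 14 days and one of 60-65 µm at 13 to 16 days, and germinal vesicle (GV) oocytes, the fully grown stage, came from mice aged 20 days. RNA was measured in 2 libraries for each growing class and in 1 column for GV. Methylation was measured by reduced representation bisulphite sequencing (RRBS, which reads DNA next to MspI sites, CCGG) in 2 libraries, A and B, for each class from 40-45 µm upward except GV, and by post-bisulphite adapter tagging (PBAT, which reads the whole genome) in 1 library of 60-65 µm oocytes. Each library pooled many oocytes that had been washed to remove somatic cells, and nothing says that A and B came from separate animals, so the p-values measure the spread between these libraries, which may be technical. The oocyte genes Zp3, a zona pellucida glycoprotein, and Gdf9, a growth factor secreted by oocytes, stood at 523 to 962 and 419 to 580 RPKM, whereas the granulosa cell genes Amh, Fshr and Foxl2 did not exceed 0.281, 0.286 and 0.0642 RPKM in any column.

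In the oocyte, DNA methylation is laid down during the growth phase by DNMT3A with its partner DNMT3L, on a genome that was almost cleared of it in primordial germ cells. Methylation in mature oocytes lies mainly over transcribed gene bodies, and CpG-rich promoters of active genes usually remain without it. Silent genes in an oocyte include those of other cell types, such as regulators of embryonic patterning, receptors of neurons, keratins of skin and genes of sperm.

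For 6 silent starts that show the range met below, the 300 bases from 270 before the start to 30 from the start on are printed in the direction of the gene, with every CpG in capitals. Sequences are from GRCm38 (RefSeq). Pitx1, a homeobox factor of hindlimb and pituitary development, and Neurog1, a factor that starts neuron formation, lie on the same chromosome and differ in methylation. Avpr1a encodes a vasopressin receptor, Ehbp1l1 a protein of endocytic transport and Matk a kinase that restrains Src kinases. Over their whole regions these 3 were higher at 60-65 than at 40-45 µm in a test whose calls were lost under some settings. RRBS read no cytosine of the printed Matk window and at most 1 of the Avpr1a window. Vmn2r29, a vomeronasal receptor, was methylated in every library.
Pitx1: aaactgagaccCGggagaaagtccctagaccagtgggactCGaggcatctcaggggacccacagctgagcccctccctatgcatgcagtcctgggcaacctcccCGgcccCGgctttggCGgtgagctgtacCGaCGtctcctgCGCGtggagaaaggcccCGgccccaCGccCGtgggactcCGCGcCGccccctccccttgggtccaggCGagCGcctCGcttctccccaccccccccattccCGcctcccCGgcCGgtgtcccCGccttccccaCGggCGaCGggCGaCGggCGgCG
Neurog1: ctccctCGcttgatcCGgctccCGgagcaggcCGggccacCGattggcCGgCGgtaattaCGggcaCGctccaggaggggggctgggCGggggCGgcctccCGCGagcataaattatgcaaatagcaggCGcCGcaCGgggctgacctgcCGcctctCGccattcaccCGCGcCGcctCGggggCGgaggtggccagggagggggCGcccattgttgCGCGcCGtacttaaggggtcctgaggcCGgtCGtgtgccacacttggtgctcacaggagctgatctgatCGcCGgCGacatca
Vmn2r29: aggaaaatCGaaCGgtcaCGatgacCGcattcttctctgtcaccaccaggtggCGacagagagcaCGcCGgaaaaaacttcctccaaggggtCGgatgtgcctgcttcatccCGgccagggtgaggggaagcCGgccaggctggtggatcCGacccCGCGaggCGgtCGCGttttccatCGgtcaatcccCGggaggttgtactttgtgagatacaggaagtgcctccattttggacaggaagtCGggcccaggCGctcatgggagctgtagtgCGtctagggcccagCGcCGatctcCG
Avpr1a: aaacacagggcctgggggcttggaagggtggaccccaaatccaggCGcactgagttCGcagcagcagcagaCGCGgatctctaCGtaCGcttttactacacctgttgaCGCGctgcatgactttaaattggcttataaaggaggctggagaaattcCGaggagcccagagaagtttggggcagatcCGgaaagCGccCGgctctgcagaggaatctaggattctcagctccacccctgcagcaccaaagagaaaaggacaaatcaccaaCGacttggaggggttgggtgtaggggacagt
Ehbp1l1: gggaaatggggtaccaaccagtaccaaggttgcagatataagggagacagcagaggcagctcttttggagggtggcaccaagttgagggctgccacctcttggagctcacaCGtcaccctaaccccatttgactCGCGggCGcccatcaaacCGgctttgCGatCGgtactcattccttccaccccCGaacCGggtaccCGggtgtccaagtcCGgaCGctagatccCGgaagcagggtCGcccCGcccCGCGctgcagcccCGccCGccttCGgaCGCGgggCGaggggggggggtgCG
Matk: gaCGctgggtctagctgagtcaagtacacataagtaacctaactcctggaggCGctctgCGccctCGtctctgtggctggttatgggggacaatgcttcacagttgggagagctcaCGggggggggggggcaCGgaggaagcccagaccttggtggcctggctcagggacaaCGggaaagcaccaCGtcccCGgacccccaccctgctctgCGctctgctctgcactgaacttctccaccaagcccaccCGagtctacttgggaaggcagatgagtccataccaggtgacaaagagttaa
The Pitx1 window (chr13:55836163-55836462, minus strand) held 29 CpG and the Neurog1 window (chr13:56252134-56252433, minus strand) held 32. At 60-65 µm the Pitx1 window was 36.5% methylated in RRBS A over 27 cytosines, 26.3% in RRBS B over 27 and 34.7% in PBAT over 12. The Neurog1 window was 3.57% in RRBS A over 7 cytosines, 0% in RRBS B over 7 and 0% in PBAT over 35. A window as rich in CpG as that of Pitx1 was thus almost without methylation at Neurog1 in the same libraries. Ehbp1l1 (chr19:5726288-5726587, minus strand, 24 CpG) had 39.4% over 23 cytosines in PBAT, Matk (chr10:81252665-81252964, plus strand, 11 CpG) 53.2% over 14, Avpr1a (chr10:122448229-122448528, plus strand, 13 CpG) 35.8% over 15 and Vmn2r29 (chr7:7278260-7278559, minus strand, 24 CpG) 14.6% over 18. In the window of Vmn2r29 the 14 cytosines of RRBS lay between 33.2% and 46.9% in all 6 libraries, above PBAT.

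Of 7880 silent genes, 3056 (38.8%) were listed at 0 in all 9 columns, and the median was 0 RPKM in every column, against 4.75 to 5.27 RPKM for 6296 steadily expressed genes, defined by the same rules but with at least 1 RPKM in all 9 columns. From the smallest step between values of short olfactory receptor genes, 0.1 RPKM on a transcript of 1 kb was worth 9.94 to 19.8 reads, depending on the column. Values of these genes below 25 such steps were whole multiples of it, within 2%, in 100% of cases. The genes nearest the limit from below were Adh4 (0.0998 RPKM), an alcohol dehydrogenase, AC117767.1 (0.0998) and Themis (0.09995), a protein of T cell development, and those nearest from above were Reck (0.10002), an inhibitor of matrix proteases, Scnn1a (0.10007), a subunit of the epithelial sodium channel, and AI480526 (0.10010). Gapdh, a glycolytic enzyme with many processed copies in the genome, was listed at only 0.327 to 0.727 RPKM. The alignment was set to report 1 position per read, and the part of this in low values was not tested.

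The RRBS libraries held 30000113 to 57319823 calls on CpG cytosines, with a median of 5 to 20 calls per cytosine, and PBAT held 99039028 with a median of 2. Over all autosomal cytosines of at least 5 calls the mean methylation went from 2.39% and 2.41% at 40-45 µm to 7.43% and 8.16% at 60-65 µm in RRBS and was 22.1% in PBAT, and RRBS library B of 50-55 µm (6.91%) stood above A (4.63%).

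Silent starts were poor in CpG. The median was 15 CpG per region, against 67 at steadily expressed starts, and 59.1% of silent regions had under 20 CpG, 23.3% had 20 to 49 and 17.6% had 50 or more, against 8.72%, 18.0% and 73.3%. No CCGG was present in 32.4% of silent regions. This decided which starts could be measured. With at least 5 calls per cytosine and 5 cytosines per region, PBAT measured 4139 silent starts, namely 25.2% of those under 20 CpG, 86.8% of those with 20 to 49 and 98.9% of those with 50 or more. Each RRBS library measured 1808 to 2204, of which only 32 to 98 had under 20 CpG. In all 6 RRBS libraries 1736 were measured, 3656 were measured in no library, and the tests of silent starts against other kinds of start were made within CpG classes. Members are not independent of each other, since 198 regions overlapped that of another silent gene.

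Most silent starts carried little methylation at 60-65 µm. In PBAT the mean over 4139 starts was 6.57%, the median 3.79%, and 2601 (62.8%) were under 5%, against 69.4% of all 17051 gene starts measured. At 25% or more stood 182 silent starts (4.40%, exact binomial 95% interval 3.79 to 5.07%, counting error only), against 4.90% of all gene starts, and 65 (1.57%) reached 50%, against 2.47%. Gene starts that were not among the silent ones had 5.07% at 25% or more. With 1 PBAT library no test was made. With a minimum of 10 calls per cytosine, which left 1716 silent starts, the share was 2.74%.

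Within CpG classes the background differed more. Under 20 CpG, 105 of 1175 silent starts (8.94%) reached 25%, against 19.3% of all gene starts of that class. With 20 to 49 CpG it was 69 of 1596 (4.32%), against 6.53%, and with 50 or more it was 8 of 1368 (0.585%), against 0.577%. The means of silent starts in these classes were 10.1%, 6.51% and 3.66% in PBAT. The plot of methylated shares by CpG class sets silent starts beside the other kinds of start.

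**Figure D1:**
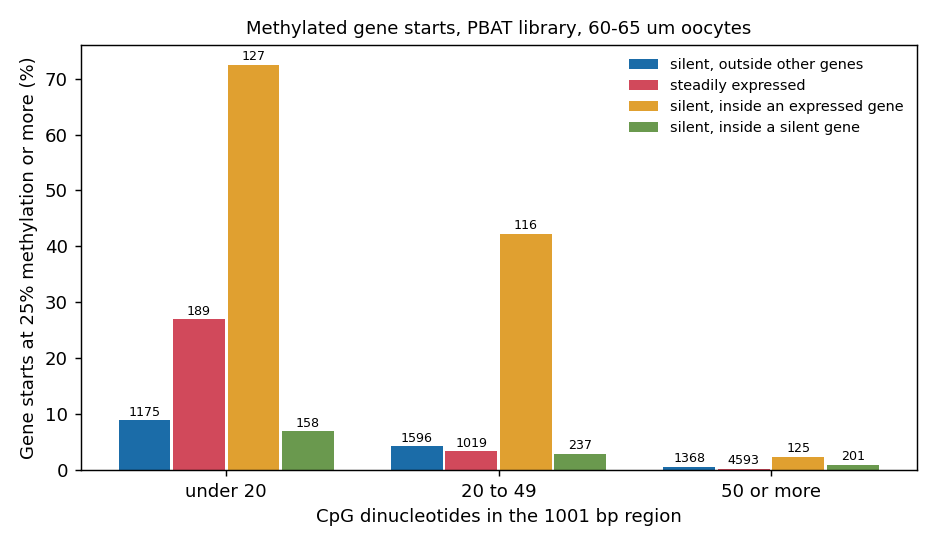
Share of gene starts at 25% methylation or more in the PBAT library of 60-65 µm oocytes (y axis, %) by the number of CpG in the region (x axis), for 4 kinds of gene start; the number over each bar is the count of starts measured. Silent starts outside other genes (8.94%, 4.32% and 0.585%) stand far below silent starts inside an expressed gene (72.4%, 42.2% and 2.40%).

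In RRBS the level was lower still and lay slightly higher in larger oocytes. The mean over silent starts was 0.974% and 0.957% in the 40-45 µm libraries A and B, 1.12% and 1.48% at 50-55 µm and 1.44% and 1.51% at 60-65 µm, or 0.966% ± 0.0117, 1.30% ± 0.256 and 1.47% ± 0.0459 (SD, n = 2). Both 60-65 µm libraries lay above both 40-45 µm libraries, and the difference of 0.509 percentage points was more than the spread within either class. All gene starts went from 0.833% ± 0.0123 to 1.43% ± 0.0648 (SD, n = 2). Each library measured other starts, and over the 1736 silent starts measured in all 6 the means were 0.928% and 0.897% at 40-45 µm, 0.969% and 1.26% at 50-55 µm and 1.17% and 1.24% at 60-65 µm, so that library B of 50-55 µm stood highest. An exact permutation test of 2 against 2 libraries cannot go below 0.333, so no p-value is given. Silent starts with 25% or more in both libraries of a class numbered 2 of 2029 at 40-45 µm (background over all gene starts 0.0506%), 3 of 1795 at 50-55 µm (0.236%) and 19 of 1952 at 60-65 µm (0.973%, background 0.998%). Few silent starts were high at any size, and their share at 60-65 µm was near that of all gene starts. At starts with 50 or more CpG, PBAT gave a higher level (3.66%) than RRBS at the same size (0.910% in A and 1.01% in B), and the reason for this offset was not tested. Over silent starts measured in both, Pearson's r was 0.907 for A with B at 60-65 µm (n = 1952) and 0.787 and 0.760 for A and B with PBAT (n = 2080 and 1911), but Spearman's rho was only 0.178, 0.120 and 0.0866. These values are descriptions over starts that share libraries.

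Silent starts and steadily expressed starts were compared inside each RRBS library with an exact two-sided sign-flip permutation test over the 6 libraries, whose smallest p is 0.031, adjusted by Benjamini-Hochberg over the 3 CpG classes. With 50 or more CpG, silent starts were higher by 0.115 percentage points ± 0.0231 (SD, n = 6 libraries), with a range of 0.0928 to 0.148, in 6 of 6 libraries (exact p = 0.031, adjusted p = 0.0938). With 20 to 49 CpG the difference was 0.206 ± 0.219 and positive in 5 of 6 libraries (exact p = 0.0625, adjusted p = 0.0938). Under 20 CpG it was -1.39 ± 3.81 and positive in 3 of 6 (exact p and adjusted p = 0.375), with only 5 to 12 steadily expressed starts per library. None of the 3 passed after adjustment, and a class at the smallest exact p cannot pass unless another class also reaches it. In PBAT the differences were 0.169, 0.758 and -9.63 percentage points, the last from means of 10.1% for 1175 silent and 19.7% for 189 steadily expressed starts.

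**Figure D2:**
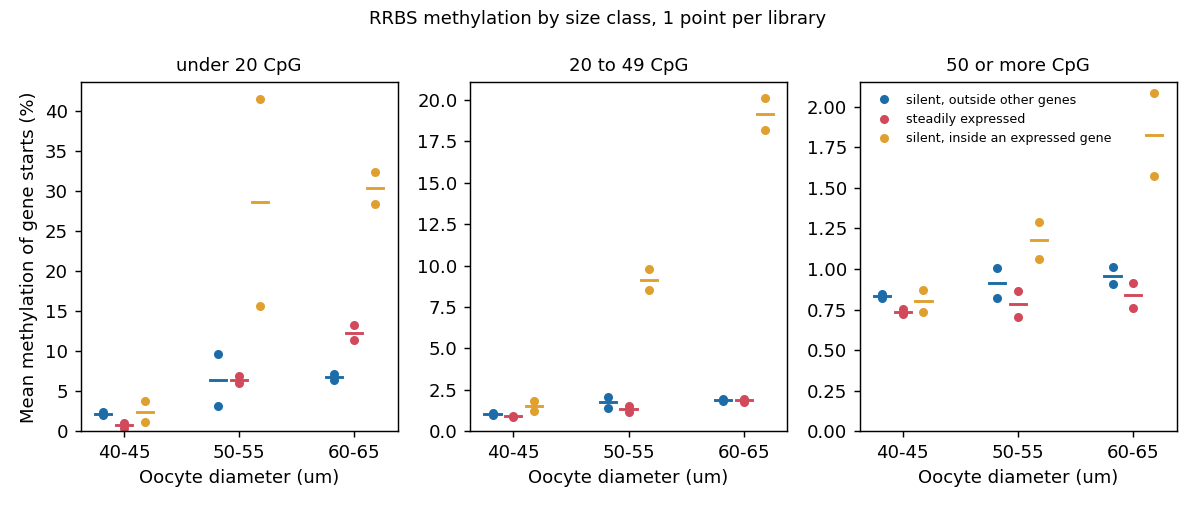
Mean methylation of gene starts (y axis, %, with its own scale in each panel) by oocyte diameter (x axis, µm), 1 point per RRBS library and a bar at the mean of 2 libraries, for silent starts outside other genes, steadily expressed starts and silent starts inside an expressed gene. With 20 to 49 CpG, silent starts moved from 1.05% to 1.90% and those inside an expressed gene from 1.502% to 19.1%.

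Silent starts inside expressed genes had other levels. Silent genes set aside because their start lay inside another listed gene were divided by that host, and 594 had a host of at least 1 RPKM in all 8 columns of growing oocytes. With 20 to 49 CpG these went from 1.502% ± 0.428 at 40-45 µm to 9.14% ± 0.899 at 50-55 µm and 19.1% ± 1.36 at 60-65 µm (SD, n = 2), whereas silent starts outside other genes went from 1.05% ± 0.0531 to 1.75% ± 0.483 and 1.90% ± 0.0832. The nested starts were higher by 8.36 percentage points on average over the 6 libraries, from 0.114 to 18.1, and in 6 of 6 libraries (exact sign-flip permutation p = 0.031, adjusted p = 0.0938). Under 20 CpG the difference was 15.4 points on only 2 to 5 nested starts per library (exact p = 0.0625, adjusted p = 0.0938), and with 50 or more CpG it was 0.367 points (exact p = 0.0938, adjusted p = 0.0938). In PBAT the differences were 36.1, 21.3 and 1.31 points. No class passed after adjustment in RRBS, where a class at the smallest exact p cannot pass unless another class also reaches it. PBAT was higher at nested starts in all 3 classes.

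The 1017 silent starts inside a silent host gave other values, in a comparison whose alternatives were added after the data were seen. They lay below silent starts outside genes by 3.42 percentage points under 20 CpG, in 6 of 6 libraries on 2 to 13 nested starts (1.01 points with a minimum of 3 cytosines, exact p = 0.031, adjusted p = 0.0469), and above them by 0.180 points with 50 or more CpG, in 6 of 6 libraries (exact p = 0.031, adjusted p = 0.0469). Both calls were lost (adjusted p = 0.0938) without any 1 library, where 5 libraries cannot reach the threshold, and also with 1000 bp on each side, with calls pooled over the region and with a limit of 0.2 RPKM. With 20 to 49 CpG the difference was 0.155 points (exact p = 0.312, adjusted p = 0.312). In PBAT the differences were -0.925 points under 20 CpG, -0.850 with 20 to 49 and 0.153 with 50 or more, and 6.96% of such starts under 20 CpG reached 25%, against 8.94% of silent starts outside genes and 19.3% of all gene starts of that class.

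At distances of 2 to 5 kb the sequence around silent starts was less methylated than that around steadily expressed ones, with all CpG classes pooled. In PBAT the mean over cytosines was 13.3% at 5 to 2 kb before silent starts, 4.85% within 500 bp and 9.87% at 2 to 5 kb after them. Around steadily expressed starts these were 20.7%, 3.65% and 35.8%, and around silent starts inside an expressed gene 38.9%, 13.98% and 30.3%. Silent starts were lower within 500 bp than in both of these flanks in each CpG class, with 14.3%, 10.2% and 11.4% before, at and after it under 20 CpG, 14.1%, 5.99% and 8.95% with 20 to 49 and 10.4%, 3.60% and 8.30% with 50 or more. With 50 or more CpG steadily expressed starts read 21.2%, 3.43% and 38.8%, so that the level after the start was higher there. Under 20 CpG there was no dip at steadily expressed starts (18.1%, 19.3% and 17.6%) or at those inside an expressed gene (38.5%, 46.2% and 34.3%). No test was made on this single library.

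**Figure D3:**
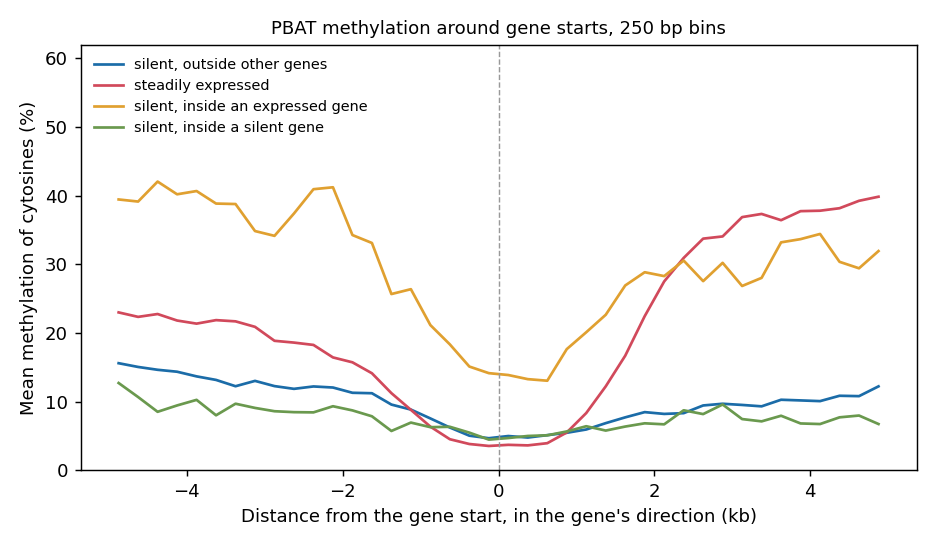
Mean methylation of cytosines in PBAT (y axis, %) by distance from the gene start in the direction of the gene (x axis, kb, in bins of 250 bp) for 4 kinds of gene start. Silent starts outside other genes average 4.85% within 500 bp and 9.87% at 2 to 5 kb after the start, where steadily expressed genes average 35.8%.

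Methylated silent starts were more frequent near expressed genes, a description with no test. All gene starts had 4.90% at 25% or more, with 19.3% under 20 CpG, 6.53% with 20 to 49 and 0.577% with 50 or more. These were not split by distance, so the pattern is not shown to be particular to silent starts. At under 1 kb from a gene of at least 1 RPKM in any growing column, 21 of 222 silent starts (9.46%) reached 25% in PBAT, and at 1 to 5 kb 29 of 288 (10.1%). Farther away it was 33 of 842 (3.92%) at 5 to 20 kb, 49 of 1543 (3.18%) at 20 to 100 kb and 50 of 1244 (4.02%) beyond 100 kb. Among starts with under 50 CpG, 47 of 316 (14.9%) within 5 kb reached 25%, against 33 of 607 (5.44%) at 5 to 20 kb and 94 of 1848 (5.09%) farther away. In RRBS the starts under 1 kb averaged 0.727% and 0.750% in the 40-45 µm libraries and 1.51% and 1.83% at 60-65 µm, near those at 5 to 20 kb (1.47% and 1.63% at 60-65 µm). Those at 1 to 5 kb averaged 1.07% and 1.42% in the 40-45 µm libraries and 2.99% and 3.28% at 60-65 µm, and those beyond 100 kb averaged 0.999% and 1.03%, then 1.33% and 1.43%. Of the 182 methylated starts 50 (27.5%) were within 5 kb, against 460 of the other 3957 (11.6%). Without the starts within 5 kb the share at 25% or more was 3.64%.

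**Figure D4:**
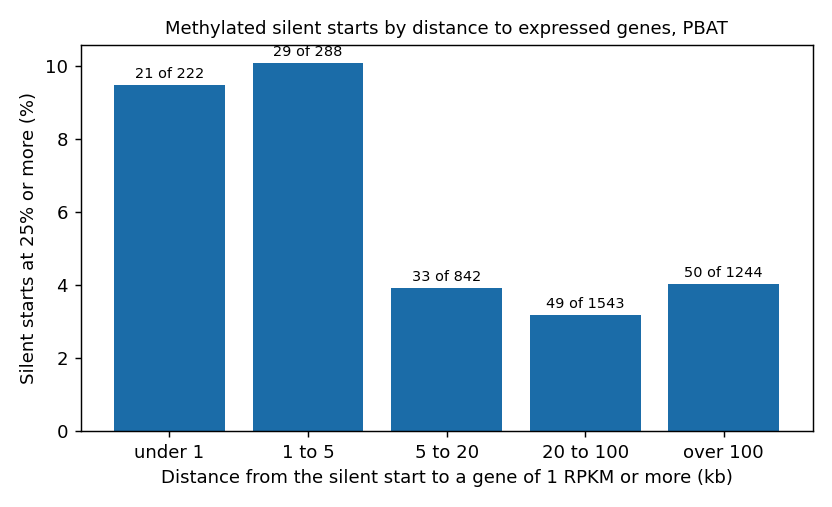
Share of silent starts at 25% methylation or more in PBAT (y axis, %) by distance to the nearest gene of at least 1 RPKM in any column of growing oocytes (x axis, kb), with the count over each bar. The 2 nearest classes stand at 9.46% and 10.1% and the 3 farther ones between 3.18% and 4.02%. All gene starts, not split by distance, had 4.90%.

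Annotation of the methylated starts is given as a description, with no test. Of the silent genes that matched GENCODE M21, 25 of 151 methylated starts (16.6%) lay inside a gene of that catalogue that had another name, against 254 of 3539 other starts (7.18%). Of 99 pseudogenes measured, 20 (20.2%) were at 25% or more, where all gene starts had 4.90% (19.3% under 20 CpG and 6.53% with 20 to 49), against 107 of 3044 protein-coding genes (3.52%) and 24 of 546 long non-coding or unsettled genes (4.40%). For pseudogenes it was 7 of 31 under 20 CpG, 12 of 60 with 20 to 49 and 1 of 8 with 50 or more. Regions at least 50% repeat-masked numbered 46, of which 10 (21.7%) were at 25% or more, with a median of 18.5 CpG.

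Growth was followed at single starts with edgeR's quasi-likelihood test on methylated and unmethylated calls, fitted on all gene starts measured in all 6 RRBS libraries with a mean of at least 5% over them. This left 165 starts, of which 25 were silent ones of the 1736 measured in all 6 libraries. A start that is unmethylated at 40-45 µm passes that mean only where it is high later, so the count of calls says nothing about silent starts in general. From 40-45 to 60-65 µm 13 of the 25 were called higher (adjusted p from 0.000185 to 0.02003), and 74.5% of all starts tested were called. From 40-45 to 50-55 µm 6 were called (background 44.2%), and from 50-55 to 60-65 µm only B230319C09Rik (background 9.70%). No silent start was called lower by edgeR, also at an unadjusted p under 0.05 (0 of 25), or by limma. Without library A of 40-45 µm 1 was called lower at 50-55 µm and 1, Gm1840, at 60-65 µm (edgeR adjusted p = 0.0465). Without library A of 60-65 µm 8 silent starts and 88 of all 165 were called over the whole range, and without library B 7 and 82. With no minimum on the mean 6 of 1729 silent starts were called, and 66 of all 10747. The calls of Avpr1a, Ehbp1l1, Matk, Pla2g3, Ticam1 and Vegfb were lost without at least 1 library and with no minimum, with edgeR adjusted p up to 0.451, 0.187, 0.214, 0.222, 1 and 0.611, and those of Ggt5 and Necab3 only with no minimum (up to 0.195 and 0.0533). From 40-45 to 60-65 µm the calls of Pea15a, 0610012H03Rik, Pitx1, Mchr1 and B230319C09Rik were kept in every alternative run. With no minimum on the mean no silent start was called from 40-45 to 50-55 µm (0 of 1729). At an unadjusted p under 0.05 by edgeR, 41 of these were higher and 14 lower, against 278 and 109 of all 10747 starts. The p-values of single starts below carry the same limit as the count, since the minimum on the mean chose starts that were high later.

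Of the 25 silent starts tested, Pea15a had the largest gain in percentage points. It encodes a death-effector-domain protein that binds ERK and was listed at no more than 0.00261 RPKM. Its start (chromosome 1, position 172206804, minus strand, 41 CpG) was 3.81% and 1.21% methylated at 40-45 µm, 35.9% and 24.2% at 50-55 µm and 71.5% and 82.4% at 60-65 µm in libraries A and B, and 76.0% in PBAT over 249 calls. The rise of 74.4 percentage points was many times the spread of 1.84 and 7.69 (SD, n = 2) in the classes compared (adjusted p = 0.000956). Almost all of its cytosines lay on the gene side of the start, 25 against 3 before it.

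CpG-rich starts were among those called. The starts of Pitx1 and Avpr1a lie inside other genes of GENCODE (Gm47071 and Gm48877) whose names are not in the expression table. Pitx1 (68 CpG) read 0.822% and 0.0823% at 40-45 µm, 11.3% and 24.2% at 50-55 µm, 34.7% and 28.4% at 60-65 µm and 31.6% in PBAT (adjusted p = 0.000505). Avpr1a (61 CpG) went from 0.673% and 4.15% through 12.2% and 28.7% to 32.4% and 47.6%, with 36.8% in PBAT (adjusted p = 0.0102, and 0.451 with no minimum on the mean). Ehbp1l1 (51 CpG) went from 0.226% and 1.96% through 20.4% and 27.9% to 31.4% and 64.8%, with 37.9% in PBAT (adjusted p = 0.00987, and 0.187 with no minimum on the mean). Its 60-65 µm libraries were far apart (SD 23.6, n = 2) and still above every earlier value. B230319C09Rik (55 CpG), a transcript whose start is 77 bp from an expressed gene and inside Tet3 in GENCODE, was called in all 3 contrasts, although the call from 50-55 to 60-65 µm (edgeR adjusted p = 0.0381) was lost by limma (0.0783) and with the replicate block (0.119), with 0.781% and 0.0896%, then 9.42% and 11.3%, then 22.1% and 30.4%, and 31.4% in PBAT. Vegfb (85 CpG), a vascular growth factor, rose least of the 13 in percentage points, from 1.62% and 0.762% to 14.8% and 14.5%, and read 34.4% in PBAT.

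The other called starts, except Ticam1, were at 12.2% or less in both libraries of 50-55 µm. Matk read 3.27% and 0% at 40-45 µm, 7.82% and 1.10% at 50-55 µm and 45.8% and 46.3% at 60-65 µm, so that most of its rise of 44.4 points came after 50-55 µm, although the contrast from 50-55 to 60-65 µm was not called (edgeR adjusted p = 0.126). Pla2g3, a secreted phospholipase, read 2.56% and 0%, 10.6% and 1.30%, then 38.0% and 48.9% (edgeR adjusted p over the whole range = 0.0104, and 0.222 with no minimum on the mean). Necab3, a calcium-binding protein of neurons, read 0.654% and 0%, 11.1% and 3.20%, then 34.5% and 39.9%, and its start is 517 bp from an expressed gene. Mchr1, the receptor of melanin-concentrating hormone, read 0.0762% and 2.11%, 7.99% and 9.15%, then 26.3% and 33.1%. The model 0610012H03Rik went from 0.817% and 0% to 30.9% and 71.2%, so its libraries at 60-65 µm were far apart (SD 28.5, n = 2). Ggt5, an enzyme that cleaves leukotriene C4, reached 15.7% and 16.2% at 60-65 µm. Ticam1, an adaptor of Toll-like receptor signalling, had 10.5% and 25.1% at 50-55 µm and 27.2% and 24.2% at 60-65 µm. Of the 13, 6 lay within 5 kb of an expressed gene, as did 8 of the 25 tested.

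**Figure D5:**
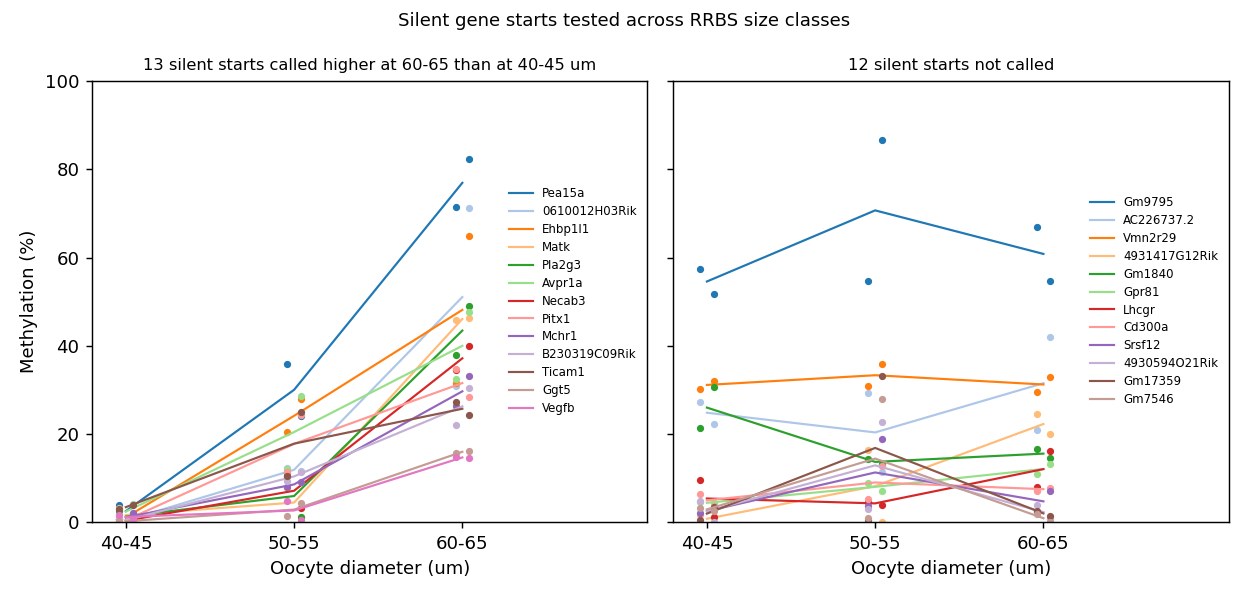
Methylation (y axis, %) of the 25 silent starts tested in RRBS by oocyte diameter (x axis, µm), with 1 point per library and a line through the means of 2 libraries; at the left the 13 called higher at 60-65 than at 40-45 µm, at the right the 12 not called. The 13 stay at or below 4.15% at 40-45 µm and reach 14.5% or more in both libraries at 60-65 µm.

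A few silent starts were already methylated at 40-45 µm. Vmn2r29 (63 CpG) read 30.1% and 32.1% at 40-45 µm, 30.8% and 35.8% at 50-55 µm and 29.6% and 32.9% at 60-65 µm, with 24.98% in PBAT, and the change over the whole range was 0.101 points (edgeR adjusted p = 0.876). Gm9795, a processed pseudogene, read 57.4% and 51.8%, 54.7% and 86.7%, then 66.9% and 54.7%. AC226737.2 read 27.3% and 22.4% at the start and 21.0% and 42.0% at the end, and the pseudogene Gm1840 read 21.4% and 30.6%, then 14.2% and 13.1%, then 16.5% and 14.6%. None of these changes was called. The model Gm6327 was the fifth highest at 40-45 µm (16.7% and 16.8%) and read 34.7% and 43.5% at 60-65 µm, with 1 library missing at 50-55 µm and so no test. Reads of a pseudogene or of a receptor from a large family can come from near-identical copies, and these levels are uncertain for that reason. The other starts not called were 4931417G12Rik, which read 1.58% and 0%, then 16.4% and 0%, then 24.5% and 20% (edgeR adjusted p = 0.102), Gpr81, a lactate receptor, from 4.50% and 4.31% to 10.9% and 13.2% (called by limma, adjusted p = 0.0296, and at 1.97% in PBAT), Lhcgr, the luteinising hormone receptor, from 9.63% and 1.13% to 7.98% and 16.1%, and Cd300a, an inhibitory receptor of immune cells, from 6.36% and 3.57% to 7.16% and 7.82%.

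In 4 further starts only library B of 50-55 µm was high. Gm17359 read 33.1% there and at most 3.48% in the other 5 libraries, Gm7546 27.9% and at most 3.26%, 4930594O21Rik 22.7% and at most 4.77%, and Srsf12, a splicing regulator, 18.9% and at most 7.14%. These starts passed the mean of 5% through 1 library.

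Regulators of development were mostly low. Of 129 silent transcription factors on a list of symbols, 112 were measured in PBAT, with a median of 60.5 CpG, a median level of 2.96% and 86 (76.8%) under 5%, where all silent starts with 50 or more CpG had a median of 3.03% and 80.8% under 5%. At 25% or more were 3 (2.68%), against 0.585% of silent starts with 50 or more CpG, 4.40% of all silent starts and 4.90% of all gene starts. Myod1, the muscle determination factor, read 1.92% in PBAT, and 0.437% and 0.645% in RRBS at 60-65 µm. Foxa2 (2.35%), an endoderm factor, Pax7 (2.80%), of muscle stem cells, and Neurog1 (1.33%) were as low in PBAT, and Nkx2-5, a heart factor, read 6.94%. Tbx5, of heart and forelimb, was not measured. These 3 were Pitx1 (31.6%), Prrx2 (69.5%), a factor of limb mesenchyme read over 7 cytosines, and Pou2af1 (26.9%), a coactivator of B cells that the symbol pattern caught. Pou2af1 was named after its value was seen.

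The share at 25% or more in the other families is to be read against the same 4.90% of all gene starts, and against their CpG content, which differed. Of 110 neuronal receptors and channels measured, the median was 3.18% and 1 (0.909%) reached 25%, Kcnj14, a potassium channel 471 bp from an expressed gene (78.9% over 6 cytosines). Scn4a, a sodium channel of muscle, is listed with 2 starts, which read 19.7% over 7 cytosines and 6.33% over 18. Of 76 secreted signals, the median was 3.08% and Ccl12, a chemokine, and Il21, a cytokine of T cells, stood at 44.2% and 43.6%, both over at most 8 cytosines. Among 65 defence peptides and immune receptors (median 4.90%), 3 (4.62%) were at 25% or more, of which Fcer1g, a signalling chain of Fc receptors 488 bp from an expressed gene, read 51.4% and Cd46, a complement regulator, 43.4%. Of 357 chemosensory receptors only 9 could be measured, and none reached 25% (5 of 29 with a minimum of 3 cytosines per region), the highest being Vmn2r29 and Taar6, a trace amine receptor (14.4%). Keratins and skin barrier genes (39 measured, median 7.50%) had Krt28 at 26.4% and Krt86 at 17.9%. Liver enzymes and plasma proteins (45 measured, median 6.15%) had Sult1a1, a sulphotransferase, at 52.3% and Apob, of lipoprotein particles, at 25.8%.

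Sperm genes gave a pair of neighbours. Of 40 measured (median 4.70%) 2 were at 25% or more (5%, near the 4.90% of all gene starts), the testis-specific kinases of spermatids Tssk2 and Tssk1, with 61.9% over 444 calls and 41.6% over 123. Tssk1 read 0% and 0% in RRBS at 40-45 µm, 11.98% in A at 50-55 µm and 39.2% and 45.0% at 60-65 µm. Its start is 58 bp from an expressed gene and inside Dgcr2 in GENCODE. Of 7 placental, mammary and seminal genes measured, Svs1 stood at 67.8% over 6 cytosines and Csnka2ip, a symbol caught by the pattern, at 17.9%. The microRNA genes Mir196a-1 and Mir219-1 read 14.7% and 3.36%. Numbered models, which have no established function, held 82 of the 182 methylated starts among 1013 measured (8.09%, against 4.40% of all silent and 4.90% of all gene starts), led by Gm10787 and Gm16268 with 78.6% each.

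The highest well-covered starts in PBAT, with at least 20 cytosines, lay at varied distances from expressed genes, which are given in parentheses. Under 20 CpG they were Prr22 (71.2%, 184 bp from an expressed gene), Gm5145 (41.2%, 374949 bp), Ggt5 (25.2%, 3181 bp) and AW822073 (13.7%, 9142 bp). With 20 to 49 CpG they were Pea15a (76.0%, 10411 bp), Gm17029 (72.8%, 238 bp), Naaladl1, a peptidase (71.04%, 10222 bp), and Gm15440 (68.1%, 205 bp). With 50 or more CpG they were Gm12505 (51.3%, 26605 bp, in a region 98.8% repeat-masked), the pseudogene Ppp1r2-ps3 (44.4%, 29684 bp), Ehbp1l1 (37.9%, 1770 bp) and Avpr1a (36.8%, 230263 bp).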

How the data were processed

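The authors made the RRBS and PBAT libraries from pools of size-selected oocytes, trimmed reads with Trim Galore 0.3.5 and aligned them to GRCm38 with Bismark (0.14.0 for RRBS, 0.10.0 for PBAT, where duplicates were removed). The deposited methylation files give the percent methylation and the counts of methylated and unmethylated calls for each cytosine. RNA reads were trimmed with Trim Galore 0.2.8 and aligned with TopHat2 2.0.9, and the authors deposited a table of RPKM values. The program that made this table is not given in the sources used here. RRBS reads carry no molecular identifiers. The interval on the PBAT share covers counting error only and takes the starts as independent, although some regions overlap. The letters A and B were not taken to pair libraries.

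Methylation of a region was the mean over cytosines with at least 5 calls, in regions with at least 5 such cytosines. CpG classes were under 20, 20 to 49, and 50 or more per region. Annotation came from GENCODE M21 (same symbol and overlapping position) and sequence from RefSeq, both on GRCm38. Gains were tested with edgeR 4.0.16 (quasi-likelihood, methylated and unmethylated calls, 1 coefficient per size class, Benjamini-Hochberg over all 165 starts tested, threshold 0.05) and with limma 3.58.1 on log2 ratios of calls with a pseudocount of 1 as an alternative, in R 4.3.3. Other steps used Python 3.11.15. In simulated data for the contrast of 60-65 with 40-45 µm (377 starts tested), edgeR recovered 171 of 200 starts raised by 30 percentage points with 3 other calls, and in a second simulation with no change it called 0 of 166.

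Members, gene lists and tests were chosen with earlier results of these data known. Named starts were the 12 highest in 60-65 µm RRBS of those measured in all 7 libraries, the 10 largest called gains, the 5 highest at 40-45 µm, the 4 highest in PBAT of each CpG class with at least 20 cytosines, the 2 highest of each gene family, listed developmental regulators (not all are reported here) and the 3 genes on either side of the RPKM limit. The remaining starts tested with edgeR were named after their values were seen. Gene families were defined by symbol patterns, which also catch a few unrelated symbols. Alternatives varied the minimum of calls and of cytosines, the width, pooling of calls, the minimum mean, the test, a replicate block and each library left out.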

Additional observations from a re-analysis of the deposited data

How the results depend on the processing

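Of 1107 values of 106 results recomputed under other settings, 948 counted as unchanged, and 12 changed direction. Unchanged meant the same direction and side of the threshold for tests, and a similar number for counts of calls. For shares, RRBS means and PBAT levels of single starts it meant a move within their error. The PBAT mean over silent starts counted as moved under every other setting. The cause of the changes was not tested. The share of silent starts at 25% or more in PBAT (4.40%) was 5.32% with 3 calls per cytosine, 2.74% with 10 calls, 2.95% with 10 cytosines per region and 3.64% without starts within 5 kb of an expressed gene. The rise of the RRBS mean from 40-45 to 60-65 µm (0.509 points) was 0.380 with 10 calls, 0.583 with 3 cytosines, 0.272 with 10 cytosines, 0.647 with 1000 bp on each side and 0.375 without starts within 5 kb. Silent minus steadily expressed starts passed the threshold (adjusted p = 0.0469 by the exact sign-flip permutation test) with 20 to 49 and with 50 or more CpG at 3 calls (0.267 and 0.114 points), 3 cytosines (0.263 and 0.131) and pooled calls (0.199 and 0.126). At 10 cytosines the difference was 0.109 with 50 or more CpG and turned to -0.00138 with 20 to 49. No difference could be formed under 20 CpG at that setting, so its adjusted p is not used. At 10 calls the difference turned to 1.05 under 20 CpG. Starts nested in expressed genes passed at 3 cytosines (11.4 points under 20 CpG, 8.93 with 20 to 49) and pooled calls (12.04 and 7.76). With 20 to 49 CpG their difference was 4.77 points at 10 cytosines and 9.47 at 250 bp. No difference could be formed under 20 CpG at these settings, so their adjusted p is not used. Starts nested in silent genes with 20 to 49 CpG turned to -0.0255 at 10 cytosines, -0.156 at 250 bp and -0.00407 at 1000 bp. Without 1 library these tests cannot go below 0.0625.

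Silent starts called higher from 40-45 to 50-55 µm (6, of 73 among all gene starts) numbered 12 (98) at 1000 bp, 3 (43) with a mean of at least 2% and 0 (4) with no minimum (edgeR, 41 higher and 14 lower at an unadjusted p under 0.05). From 50-55 to 60-65 µm (1, of 16) they numbered 0 at 250 bp, with a mean of at least 2% and with no minimum (0 each) and by limma (26), 5 (48) with a mean of at least 10%, and 0 to 3 (0 to 51) with 1 library left out. From 40-45 to 60-65 µm (13, of 123) they numbered 24 (164) at 1000 bp, 6 (66) with no minimum and 7 to 14 (82 to 127) with 1 library left out. With the replicate block the counts were 4, 0 and 13 (58, 0 and 107). Correlations of same-lettered deviations were -0.0631, -0.0224 and -0.276. With 2 libraries per class they cannot tell whether the letters A and B mark a shared animal or batch. With 1 library left out, changes from 40-45 to 60-65 µm, on the log2 odds scale, could turn negative for 4 starts that were not called, from -0.76 to 2.48 for 4930594O21Rik (-0.22 without A of 60-65 µm), -1.22 to 2.38 for Gm17359 (-0.05), -0.16 to 1.61 for Srsf12 and -0.28 to 0.49 for Vmn2r29 (-0.01). At 10 cytosines the share at 25% or more was 0% for secreted signals, neuronal genes and placental, mammary and seminal genes and 5.31% for numbered models.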

Other observations

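Of 18 imprinted genes listed after values were seen, 2 were silent by the RPKM limit. The start of Sgce, a sarcoglycan gene, read 15.6% and 6.65% at 40-45 µm, 20.3% in library A at 50-55 µm, 50.5% and 44.6% at 60-65 µm and 29.2% in PBAT over 687 calls. The start of Slc38a4, an amino acid transporter gene, read 65.1% in PBAT over 225 calls and was not measured in RRBS. Their highest RPKM values were 0.0925 and 0.0356.

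RPKM chose these genes, and classes of RPKM differed in CpG content (median 20, 36, 41 and 46 CpG from the lowest to the highest), so the following is a description. In PBAT 64 of 1074 starts of genes at 0 RPKM in all columns (5.96%) were at 25% or more, as were 3.07% of those with a highest value up to 0.02 RPKM, 5.71% from 0.02 to 0.05 and 3.72% from 0.05 to 0.1. All gene starts had 4.90%, with 19.3% under 20 CpG, 6.53% with 20 to 49 and 0.577% with 50 or more.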
